A study of Mus musculus with 102 samples.

Results

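Among 88 genomic regions chosen for targeted bisulfite sequencing in mouse embryonic stem cells (mESCs), 8 were listed as methylated: 6 fully methylated regions (FMRs), 1 methylated region of the unmethylated class (Methylated_UMR) and 1 methylated CpG island (metIsland). They were taken by these type names alone, and each is 401 bp long. A CpG is a cytosine followed by a guanine, and the deposited amplicon tables hold 40 CpGs inside 7 of the 8 regions, of 405 CpGs in all. A capture table (SureSelect) holds 153 CpGs inside 5 of these regions or within 2 kb of their ends, of 2177608 in all. The authors named the types by methylation state, so a high level in them is a property of the choice and is given below as a description.

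DNA methylation of a CpG in mESCs is placed by the de novo methyltransferases DNMT3A and DNMT3B and copied after replication by the maintenance methyltransferase DNMT1. It is lost passively where the copy fails, and actively where TET proteins oxidise 5-methylcytosine. Most CpGs of the mouse genome sit in CpG-poor sequence and are methylated, whereas dense CpG islands, many of them promoters, are usually free of methylation. A methylated island combines the sequence of the second kind with the state of the first.

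All positions refer to mm9. The FMRs are named here by their genes: the Atp2b2 FMR (chr6:113705515-113705915, plasma membrane calcium pump), the Arhgef15 FMR (chr11:68768916-68769316), and the first and second Traf3 FMRs (chr12:112491293-112491693 and chr12:112492493-112492893, an adaptor of TNF receptor family signalling). A further one is the Acot7 FMR (chr4:151612842-151613242, an acyl-CoA thioesterase). These 5 lie in introns, and the Arhgef15 FMR has its centre 1244 bp from an annotated start of its gene. The sixth FMR, in an intron of Tcf4, had no CpG in any table and has no values below. The metIsland lies in coding sequence of AU022751 (chrX:5659058-5659458), which the annotation lists both as protein coding and as a pseudogene. The Methylated_UMR is intergenic (chr6:125236379-125236779), 319 bp upstream of Tuba3a, an alpha-tubulin gene on the minus strand.

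The sequences differ in CpG density. The metIsland holds 28 CpGs in 401 bp with an observed-to-expected CpG ratio of 0.725 (CpG number times length, divided by the product of the C and G numbers) and a GC content of 62.1%. The 6 FMRs hold 4 to 9 CpGs with ratios of 0.147 to 0.412, and the Methylated_UMR holds 9 with a ratio of 0.302, inside the range of the FMRs. The stretches that were read are printed 5′ to 3′ on the plus strand of mm9, in lower case with the measured CpGs in capitals. The regions with the most measured CpGs of each type are shown, with the Atp2b2 and Arhgef15 FMRs added after their values were seen because the difference between the lines was widest there.
Acot7 FMR, chr4:151612853-151613101: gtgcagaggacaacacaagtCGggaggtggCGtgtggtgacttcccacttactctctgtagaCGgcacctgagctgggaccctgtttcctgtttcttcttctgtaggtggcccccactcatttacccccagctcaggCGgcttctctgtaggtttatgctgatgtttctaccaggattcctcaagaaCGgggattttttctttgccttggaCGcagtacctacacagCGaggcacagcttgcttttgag
Second Traf3 FMR, chr12:112492598-112492782: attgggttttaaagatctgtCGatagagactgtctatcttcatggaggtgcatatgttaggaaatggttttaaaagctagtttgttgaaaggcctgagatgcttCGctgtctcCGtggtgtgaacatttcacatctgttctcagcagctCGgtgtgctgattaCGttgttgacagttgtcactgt
Atp2b2 FMR, chr6:113705552-113705681: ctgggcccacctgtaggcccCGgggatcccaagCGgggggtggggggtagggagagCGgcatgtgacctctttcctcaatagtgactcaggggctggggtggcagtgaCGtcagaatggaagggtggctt
Arhgef15 FMR, chr11:68769038-68769199: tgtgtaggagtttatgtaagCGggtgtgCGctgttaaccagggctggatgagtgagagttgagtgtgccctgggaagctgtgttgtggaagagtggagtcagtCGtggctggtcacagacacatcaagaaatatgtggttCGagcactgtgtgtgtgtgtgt
Tuba3a Methylated_UMR, chr6:125236476-125236695: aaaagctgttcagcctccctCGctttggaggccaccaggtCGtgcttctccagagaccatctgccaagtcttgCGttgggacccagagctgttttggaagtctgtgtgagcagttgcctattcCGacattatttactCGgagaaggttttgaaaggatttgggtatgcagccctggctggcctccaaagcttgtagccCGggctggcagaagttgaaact
AU022751 metIsland, chrX:5659107-5659298: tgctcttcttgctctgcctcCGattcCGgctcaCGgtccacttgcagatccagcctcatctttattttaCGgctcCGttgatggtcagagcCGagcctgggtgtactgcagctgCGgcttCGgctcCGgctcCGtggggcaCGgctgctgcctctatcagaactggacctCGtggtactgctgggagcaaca
Counting every CpG of the genome, the 12 measured metIsland CpGs each have 3 to 7 others within 50 bp, and the 28 measured CpGs of the other regions have 0 to 3.

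Both cell lines are C57BL6/J mESCs whose Dnmt3a and Dnmt3b alleles carry loxP sites and are intact until Cre protein is delivered. The parental line, which has TET proteins, is called wild-type, and TET triple knockout (TTKO) cells are a line derived from it by CRISPR in which Tet1, Tet2 and Tet3 are mutated. The TTKO line is 1 clone, so the knockout and the clone cannot be told apart. Cells were sampled without transduction at day 0 and, after Cre protein or a mock treatment with buffer, at days 4, 8, 10, 13, 17 and 29, with 3 replicates per condition (78 amplicon samples), whereas SureSelect covered TTKO cells at day 0 and after Cre and wild-type cells at day 0 (24 samples). Transduction acts on a population, so a Cre sample can keep cells with uncut alleles. The paper calls the replicates biological. The labels do not say whether they are separate cultures, so p-values measure the spread between these samples.

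The methylation level of a CpG is the percentage of its reads that keep a cytosine after bisulfite conversion. Coverage summed over CpGs was 1892003 to 4706318 reads per TTKO amplicon sample and 2097549 to 4704909 per wild-type sample, and the median over the 40 CpGs ranged from 3423.5 to 19679 reads per sample. Reads of PCR amplicons carried no molecular identifiers, so intervals from read numbers cover counting error only and amplicon conditions were compared by the spread between replicates. The Acot7 FMR had no level in TTKO Cre replicate 1 and wild-type mock replicate 2 at day 29, and the Arhgef15 FMR had none in wild-type Cre replicate 1 at day 13.

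At day 0, in non-transduced cells with the de novo enzymes intact, all 7 regions were more methylated in TTKO than in wild-type cells. In mock cells this gap changed with time, as given below. The widest gaps lay in the Atp2b2 and Arhgef15 FMRs, whose wild-type means were 55.8% and 59.6%, and the narrowest was in the metIsland. In the Atp2b2 FMR the level at day 0 was 82.6%, 83.1% and 79.3% in the TTKO replicates and 53.9%, 54.6% and 58.9% in wild-type. In the Arhgef15 FMR it was 90.2%, 85.8% and 84.4% in TTKO and 59.9%, 57.9% and 61.0% in wild-type. The lowest TTKO replicate thus lay far above the highest wild-type replicate in both FMRs, with differences between means of 25.9 and 27.2 percentage points.

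The other regions were already highly methylated in wild-type cells. The mean rose from 75.4% ± 1.09 to 86.6% ± 1.03 in the Acot7 FMR, from 84.0% ± 0.386 to 93.3% ± 1.28 in the first Traf3 FMR and from 81.2% ± 1.17 to 87.9% ± 0.765 in the second (wild-type to TTKO, SD, n = 3 each). The Methylated_UMR went from 79.9% ± 0.386 to 87.3% ± 1.11 and the metIsland from 90.2% ± 1.58 to 95.2% ± 1.19 (SD, n = 3 each). No region had overlapping replicates between the lines (two-sided exact permutation test, p = 0.1 for each, the smallest p that 3 samples against 3 allow), which was also so for 82.1% of the 67 regions of the whole table. By CpG, 33 of 40 were higher in TTKO cells (20 of 22 in FMRs, 6 of 6 in the Methylated_UMR and 7 of 12 in the metIsland), against 59.3% of 405 CpGs in the table (quasi-binomial model with limma's moderated dispersion, Benjamini-Hochberg adjusted p under 0.05). None of the 40 was called lower by this model or by limma on log2 read ratios, and 0 at an unadjusted p under 0.05, against 1.48% of the table. The median log2 odds ratio of TTKO over wild-type was 1.14 over the 40 CpGs and 1.17 over the table.

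By CpG, the largest difference among the FMRs was at chr11:68769058 in Arhgef15, the first CpG of the printed stretch, with 90.3% in TTKO and 54.6% in wild-type cells (log2 odds ratio 2.96 ± 0.20 SE, quasi-binomial adjusted p = 1.06e-05). In the Methylated_UMR it was at chr6:125236549, with 94.3% and 84.4% (1.57 ± 0.26 SE, adjusted p = 0.00105). In the metIsland it was at chrX:5659198, with 92.1% and 83.5% (1.15 ± 0.22 SE, adjusted p = 0.00236).

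After Cre removed the de novo enzymes from TTKO cells, which lack the active route of demethylation, methylation fell in all 7 regions, but to very different levels. By day 29 the Atp2b2 and Arhgef15 FMRs had Cre means of 45.4% and 48.3%, whereas the metIsland had 88.9%. In the Atp2b2 FMR the Cre replicates had 46.3%, 47.2% and 42.6% and the mock replicates 84.9%, 84.3% and 84.7%. In the Arhgef15 FMR they had 50.6%, 49.1% and 45.3% against 84.6%, 82.1% and 84.0%. Cre and mock replicates were far apart in both, and the share of the mock level lost was 46.4% ± 2.94 and 42.2% ± 3.27 (SD over Cre replicates, n = 3).

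The Acot7 FMR lost 42.4% ± 5.75 (SD, n = 2) of its mock level, with 56.4% and 49.0% in the Cre replicates that had a level and 90.0%, 91.8% and 92.6% in the mock replicates. The neighbouring Traf3 FMRs, both in the same gene, kept more of their methylation. The first had 81.4%, 79.2% and 70.9% after Cre and 92.7%, 93.2% and 94.0% in mock, a loss of 17.3% ± 5.95 (SD, n = 3). The second had 70.5%, 63.5% and 70.0% against 90.0%, 87.4% and 90.6%, a loss of 23.9% ± 4.37 (SD, n = 3). Across the FMRs the Cre levels at day 29 thus ran from 45.4% to 77.2% while the mock levels ran from 83.6% to 93.3%.

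The Methylated_UMR had 71.3%, 69.7% and 68.4% after Cre and 88.7%, 88.0% and 90.8% in mock, a loss of 21.7% ± 1.60 (SD, n = 3), which lay between those of the Traf3 FMRs. The metIsland had 86.6%, 92.1% and 87.9% after Cre and 92.6%, 97.7% and 96.8% in mock, a loss of 7.16% ± 3.03 (SD, n = 3). Its highest Cre replicate was just under its lowest mock replicate, so the groups did not overlap there either. In 7 of 7 regions the highest Cre replicate was under the lowest mock replicate (exact permutation test, two-sided, p = 0.1 for each), as in 97.0% of 67 regions of the table. Over the 330 CpGs of the table with no missing TTKO level, 37.4% ± 0.298 (SD, n = 3) of the mock level was lost.

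**Figure D1:**
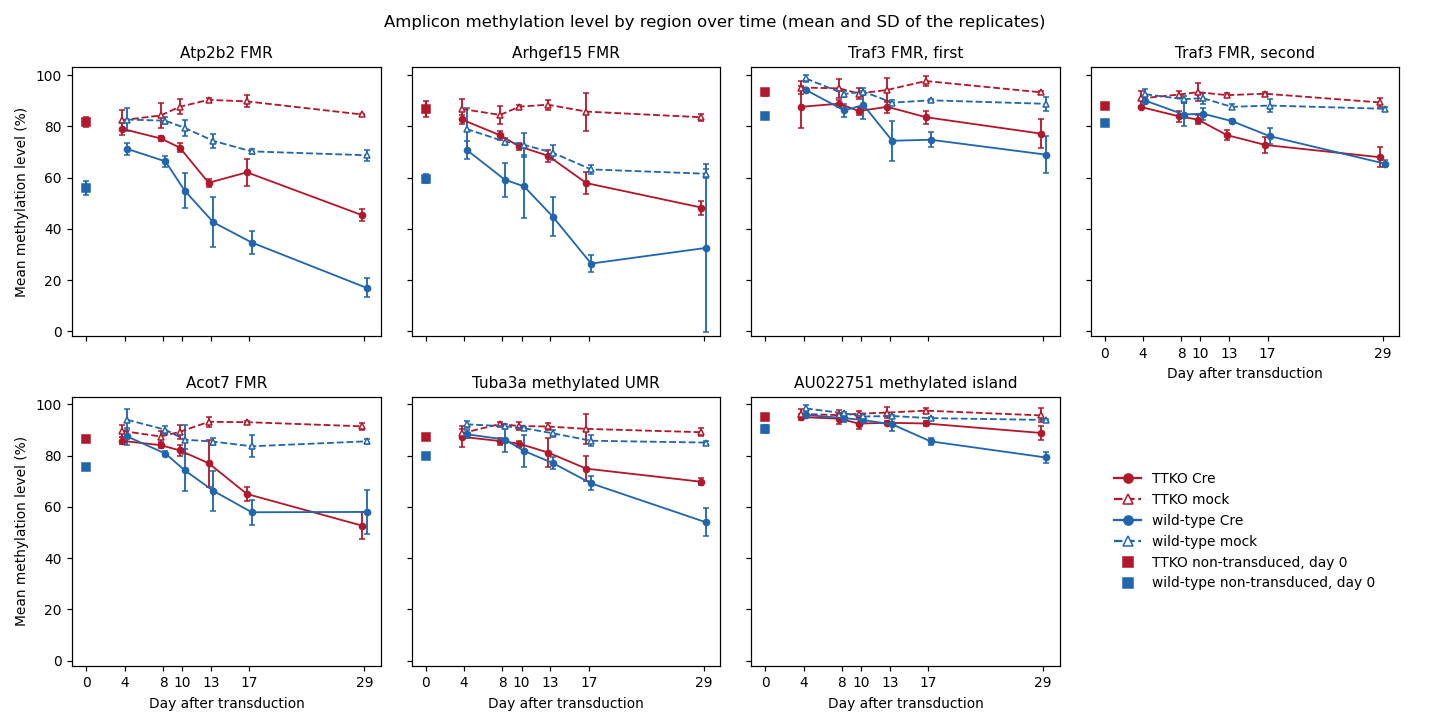
Mean methylation level in percent (y axis) against day (x axis) for each of the 7 regions in TTKO and wild-type cells, with non-transduced cells at day 0, Cre and mock samples as separate series and error bars of 1 SD over replicates. In TTKO cells the Cre series of the Atp2b2 FMR ends at 45.4% and that of the metIsland at 88.9%, and the single wide bar is the wild-type Arhgef15 FMR at day 29.

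In TTKO cells the Cre replicates were below all mock replicates in 2 of 7 regions at day 4 (the second Traf3 and Acot7 FMRs), against 33.3% of 66 regions in the table. At day 8 they were below in 6 of 7 regions (59.7% of 67 in the table), with the metIsland overlapping. At day 10 this held in 7 of 7 (84.8% of 66), at day 13 in 6 of 7 (80.6% of 67), with the first Traf3 FMR overlapping, and at day 17 in 7 of 7 (85.1% of 67). In wild-type cells the counts were 4, 6, 3, 7 and 7 of 7 regions at days 4, 8, 10, 13 and 17, against 36.4%, 85.1%, 70.1%, 80.6% and 85.1% of the table. Neither an order of regions nor one of types is read from these overlaps, which rest on at most 3 replicates a group. The metIsland was at 95.1% ± 1.25 at day 4, 92.6% ± 1.06 at day 17 and 88.9% ± 2.90 at day 29 after Cre, against 79.0% ± 2.49, 62.1% ± 5.38 and 45.4% ± 2.48 in the Atp2b2 FMR (SD, n = 3 each).

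Neighbouring CpGs of a region could differ as much as regions did. In TTKO cells 26 of the 33 CpGs with a level in all 6 day 29 samples were lower after Cre than in mock (quasi-binomial model, adjusted p under 0.05), against 66.7% of 384 CpGs in the table, and 27 were lower at an unadjusted p under 0.05. They comprised 15 of 15 FMR CpGs, 6 of 6 in the Methylated_UMR and 5 of 12 in the metIsland. None was called higher by this model or by limma on log2 read ratios, and 0 at an unadjusted p under 0.05. The 7 Acot7 CpGs were outside this count for want of TTKO Cre replicate 1, and all 7 were called lower when 2 levels per group were enough, an alternative chosen after seeing the data that called 33 of 40 members and 68.6% of 405 CpGs in the table. Set against mock, the Cre samples had a median log2 odds ratio of -2.26 in FMRs, -1.78 in the Methylated_UMR, -1.24 in the metIsland and -1.91 over the table.

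The lowest loss of an FMR CpG was at chr12:112492702 in the second Traf3 FMR, with 86.6% after Cre and 92.5% in mock, a loss of 6.44% ± 1.28 (SD, n = 3, log2 odds ratio -0.95 ± 0.18 SE, quasi-binomial adjusted p = 0.00234). The first CpG of the same stretch, 84 bp away, lost 40.7% ± 8.87 (SD, n = 3). The highest loss was at chr11:68769141 in Arhgef15, with 23.0% after Cre and 75.2% in mock, a loss of 69.4% ± 6.85 (SD, n = 3, log2 odds ratio -3.37 ± 0.21 SE, adjusted p = 1.74e-05). The other Arhgef15 CpGs lost 26.6% to 41.3%, so this single CpG stood apart within its amplicon.

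In the Methylated_UMR the losses ran from 5.22% ± 1.83 at chr6:125236613 (91.0% after Cre, 96.0% in mock, quasi-binomial adjusted p = 0.0152) to 40.1% ± 2.46 at chr6:125236516 (49.3% and 82.4%, adjusted p = 4.54e-05, SD, n = 3 each). In the metIsland they ran from 1.16% ± 2.02 at chrX:5659227 (93.9% and 95.0%, adjusted p = 0.780) to 20.0% ± 8.86 at chrX:5659198 (74.2% and 92.7%, adjusted p = 0.00850, SD, n = 3 each). The metIsland CpG with the highest loss was thus below the lowest-losing CpG of the Atp2b2 FMR, at 40.5%, but above the lowest-losing CpG of the second Traf3 FMR.

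Over the 40 CpGs the percentage lost in TTKO cells went with a lower level at day 0 (Spearman's rank correlation -0.890) and with fewer CpGs within 50 bp (-0.537). Among the 28 CpGs outside the metIsland the second value was 0.0213 and the first -0.736. CpGs of an amplicon share reads, so these values are descriptions. The percentages lost in the lines had a Spearman's rank correlation of 0.777 over the 40 CpGs.

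**Figure D2:**
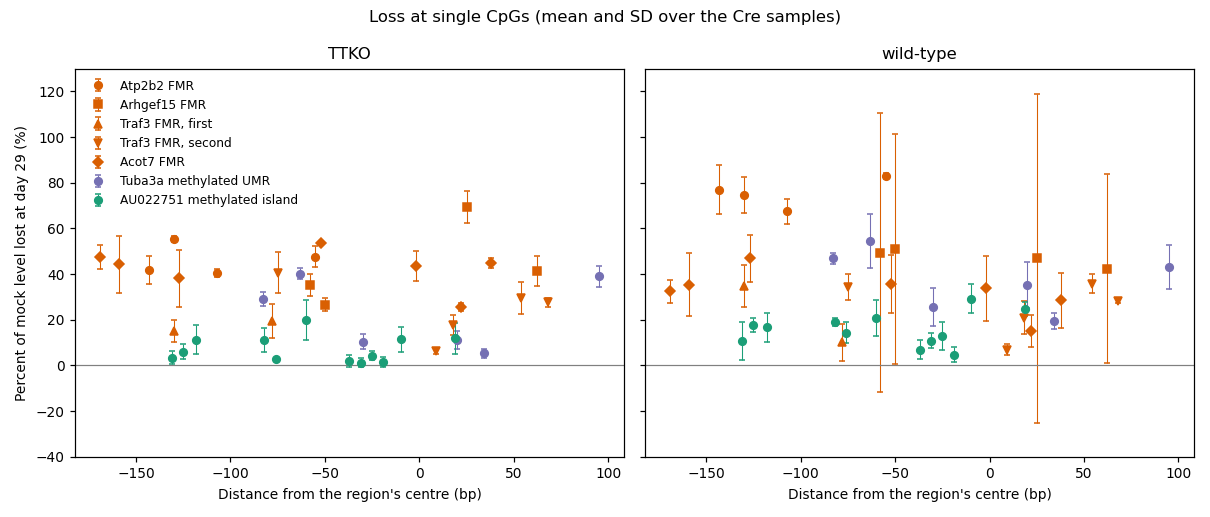
Percentage of the mock level lost at day 29 (y axis) against distance from the region's centre in bp (x axis) for each of the 40 CpGs in TTKO (left) and wild-type cells (right), with 1 symbol per region, points for the mean over Cre replicates and bars of 1 SD. In TTKO cells the FMR CpGs span 6.44% to 69.4%, the Methylated_UMR CpGs 5.22% to 40.1% and the metIsland CpGs 1.16% to 20.0%.

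Between the types, FMR CpGs lost most and metIsland CpGs least in TTKO cells. Over the 15 FMR CpGs with no missing TTKO level the loss was 33.5% ± 2.35 (SD, n = 3), against 21.7% ± 1.60 in the Methylated_UMR and 7.16% ± 3.03 in the metIsland. Within the 3 Cre replicates, the FMR loss exceeded the metIsland loss by 21.3, 30.3 and 27.3 percentage points, a mean of 26.3 ± 4.59 (SD). It exceeded the Methylated_UMR loss by 11.8 ± 0.808, and the Methylated_UMR loss exceeded the metIsland loss by 14.5 ± 3.82 (SD, n = 3 each). Each order was the same in every Cre replicate (two-sided exact permutation test of the within-sample ratio of type means, Cre against mock, p = 0.1, the smallest possible). The Methylated_UMR and the metIsland are 1 region each, so a type cannot be told apart from a region there, and the Traf3 FMRs, with losses of 17.3% and 23.9%, lay on both sides of the Methylated_UMR.

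In wild-type cells, where TET proteins are present, Cre lowered methylation below mock without overlap in 6 of 7 regions, as in 77.6% of 67 regions of the table. The exception was the Arhgef15 FMR, where Cre replicate 3 had 70.5% and replicates 1 and 2 had 15.4% and 11.9%, against 59.8%, 61.7% and 63.1% in mock (two-sided exact permutation test, p = 0.4). With all Cre replicates the loss there was 47.0% ± 53.5 (SD, n = 3), and without Cre replicate 3, an alternative chosen after seeing the data, it was 77.9% ± 4.01 (SD, n = 2, exact p = 0.1). That library did not stand apart over the table, where its mean level was 14.6% and those of replicates 1 and 2 were 14.3% and 14.7%. All 4 CpGs of the amplicon were high together in it, and the reason was not tested.

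The Atp2b2 FMR fell furthest among the regions whose replicates did not overlap, to 16.8%, 20.7% and 13.3% after Cre against 67.1%, 71.2% and 67.9% in mock, a loss of 75.3% ± 5.39 (SD, n = 3). The Methylated_UMR fell to 49.0%, 53.2% and 59.7% against 84.8%, 85.9% and 84.7%, a loss of 36.6% ± 6.35 (SD, n = 3). The metIsland fell to 79.2%, 81.6% and 77.2% against 94.3%, 93.6% and 93.9%, a loss of 15.6% ± 2.37 (SD, n = 3). It was again the region with the lowest loss.

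Among the other FMRs, the first Traf3 FMR had 69.3%, 76.0% and 61.6% after Cre and 85.6%, 90.4% and 90.5% in mock, a loss of 22.3% ± 8.12. The second had 63.8%, 66.3% and 66.2% against 86.2%, 86.7% and 87.7%, a loss of 24.7% ± 1.60. The Acot7 FMR had 49.3%, 58.1% and 66.7% against 84.9% and 86.3%, a loss of 32.2% ± 10.2 (SD, n = 3 Cre replicates each). Cre and mock replicates did not overlap in these 3 FMRs.

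By CpG, 27 of 33 were lower after Cre in wild-type cells (quasi-binomial model, adjusted p under 0.05), against 51.8% of 392 in the table, comprising 10 of 15 FMR CpGs, 6 of 6 in the Methylated_UMR and 11 of 12 in the metIsland, and 29 were lower at an unadjusted p under 0.05. None was called higher by this model or by limma on log2 read ratios, and 0 at an unadjusted p under 0.05. The 4 Arhgef15 CpGs, with the divergent library, and chr12:112491415 in the first Traf3 FMR were the FMR CpGs that did not pass. Between types, the FMR loss over the 11 CpGs with no missing wild-type level (Atp2b2 and Traf3 FMRs) exceeded the metIsland loss by 24.3 ± 1.15 percentage points and the Methylated_UMR loss exceeded it by 21.0 ± 7.91 (SD, n = 3, exact permutation p = 0.1 each). FMRs and the Methylated_UMR did not differ beyond the spread, with differences of -1.68, -1.31 and 12.9 points in the Cre replicates (mean 3.32 ± 8.34, SD, n = 3, exact permutation p = 1.0), and without Cre replicate 3 the mean was -1.50.

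The mock samples of wild-type cells did not hold the day 0 level. In 7 of 7 regions the non-transduced replicates at day 0 lay below all mock replicates at day 4, as in 59.1% of 66 regions of the table, and the mock level then fell to day 29 without overlap in 7 of 7 regions, as in 47.0% of the table. The Atp2b2 FMR went from 55.8% ± 2.73 at day 0 to 82.7% ± 4.45 in mock at day 4 and 68.7% ± 2.21 in mock at day 29 (SD, n = 3 each). The metIsland went from 90.2% ± 1.58 to 98.4% ± 1.42 and 93.9% ± 0.390 (SD, n = 3 each). In TTKO cells the same rises and falls did not overlap in 1 of 7 regions (Acot7, against 10.4% of the table) and in 0 of 7 (against 14.9%). In mock at day 4 the wild-type mean lay below the TTKO mean only in the Arhgef15 FMR (79.0% against 86.8%). In the Atp2b2 FMR the means were then 82.7% and 82.4%. By day 29 the wild-type mock mean was below the TTKO mock mean in each region. Losses are therefore given against mock samples of the same day.

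**Figure D3:**
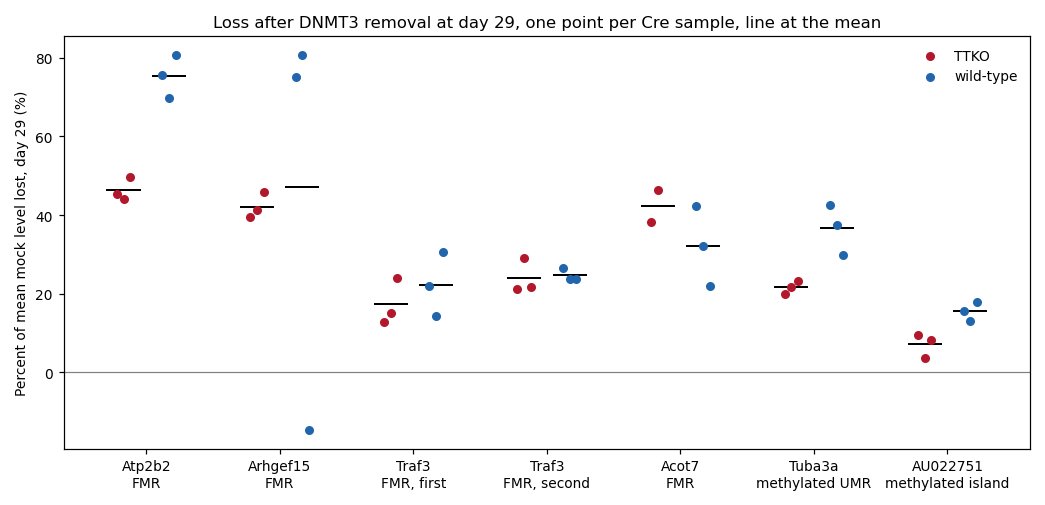
Percentage of the mean day 29 mock level lost after Cre (y axis) in each of the 7 regions (x axis), with a point for each Cre replicate in TTKO and wild-type cells and lines at the means. The Atp2b2 FMR lies at 44.2% to 49.7% in TTKO and 69.9% to 80.6% in wild-type cells, and wild-type Cre replicate 3 of the Arhgef15 FMR lies below 0 at -14.6%.

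Comparing the lines, the share of the mock level lost was higher in wild-type than in TTKO cells in the Atp2b2 FMR (by 28.9 percentage points), the Methylated_UMR (by 14.9) and the metIsland (by 8.42), with no overlap between Cre replicates (two-sided exact permutation test, p = 0.1 each). Such a gap without overlap was found in 3 of 7 regions, near the 37.3% of 67 regions in the table. The table as a whole went the same way, with 47.5% lost in wild-type and 37.4% in TTKO cells, a difference of 10.1 points without overlap. These shares cover the CpGs with no missing level in the line, 278 in wild-type and 330 in TTKO cells, so the sets differ. In the Traf3 FMRs the losses of the lines overlapped, with differences of 5.05 and 0.722 points (exact permutation p = 0.6 and p = 0.8). In the Acot7 FMR wild-type minus TTKO was -10.2 points, with overlap (exact permutation p = 0.3). In the Arhgef15 FMR the difference was 4.86 points with all replicates (exact permutation p = 1.0) and 35.7 points without wild-type Cre replicate 3 (77.9% against 42.2% lost, exact permutation p = 0.1, n = 2 and 3), which would exceed that of the Atp2b2 FMR, so its value is decided by 1 library.

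Tested as the difference of the Cre effects on the log odds scale, 1 of 33 CpGs was called, with a smaller effect in TTKO cells, against 3.12% of 384 CpGs in the table (quasi-binomial model with interaction, adjusted p under 0.05). None of the 33 was called in the other direction, against 2.86% in the table. At an unadjusted p under 0.05 there were 6 of the 33, all with a smaller effect in TTKO cells. The share of the table at that unadjusted threshold is not given here, so no excess is read from this count. The called CpG was chr6:113705660, the last CpG of the printed Atp2b2 stretch, which lost 47.5% ± 4.57 in TTKO and 83.0% ± 1.28 in wild-type cells (SD, n = 3 each), with a difference of 1.13 ± 0.27 (SE, log2 odds ratio, adjusted p = 0.0417). The call was lost with a replicate block, with limma and with a minimum of 1000 reads, and in 8 of the 12 fits that left out 1 library (any TTKO Cre replicate, TTKO mock replicates 1 or 2, wild-type Cre replicate 1, and wild-type mock replicates 2 or 3). The count was 3 without wild-type Cre replicate 2, all in the Atp2b2 FMR, and 5 without wild-type Cre replicate 3, of which 3 lie in the Arhgef15 FMR. The share of the table called in this direction also moved, from 0% to 8.33% over the fits with 1 library left out.

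SureSelect columns join the 3 replicates of a time point, so they give 1 value per CpG and comparisons between them concern pooled libraries, with no spread between replicates. They extend the picture to 3 FMRs, the Methylated_UMR, the metIsland and their surroundings. From day 0 to day 29 after Cre in TTKO cells, 112 of 153 CpGs were lower (two-sided Fisher's exact test, Benjamini-Hochberg adjusted p under 0.05), against 59.3% of the table, comprising 49 of 51 in and around FMRs, 44 of 47 for the Methylated_UMR and 19 of 55 for the metIsland. None was called higher, nor with over-dispersion between replicates allowed for, against 0.171% of the table. Median coverage at day 0 was 308 reads for the FMR CpGs and 124 for the metIsland CpGs. With at least 100 reads in both columns, 44 of 46 FMR CpGs and 17 of 43 metIsland CpGs were called lower, against 1181204 of 1967625 CpGs of the table at that coverage. The median change was -24.0 percentage points for FMRs, -21.0 for the Methylated_UMR, -6.33 for the metIsland and -12.2 for the table.

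Inside the regions the order seen with amplicons recurred, but with the Atp2b2 FMR as the only FMR covered. That FMR had the highest TTKO loss in the amplicons, and the Traf3 FMRs had no SureSelect CpG. Of the CpGs inside the regions, 19 were the same ones that the amplicons read. In the flanks the order was not the same, as given below. The 3 Atp2b2 FMR CpGs fell from a mean of 77.9% at day 0 to 46.8% at day 29, the 8 Methylated_UMR CpGs from 85.5% to 68.4% and the 15 metIsland CpGs from 91.8% to 84.5%. The metIsland mean was lower at day 17, at 80.7%, than at day 29. Single CpGs fell most in the FMR and least in the metIsland, each with intervals that did not overlap between the days. The largest fall inside an FMR was at chr6:113705585, from 75.8% (95% Wilson interval 67.7 to 82.4, 128 reads) to 33.6% (25.7 to 42.6, 116 reads, Fisher's exact test, adjusted p = 9.19e-11). It was at chr6:125236496 in the Methylated_UMR, from 79.5% (75.9 to 82.6, 565 reads) to 49.1% (44.9 to 53.3, 552 reads, Fisher's exact test, adjusted p = 1.10e-25). In the metIsland it was at chrX:5659305, from 86.6% (77.6 to 92.3, 82 reads) to 68.9% (58.7 to 77.5, 90 reads, Fisher's exact test, adjusted p = 0.0113).

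The surroundings of the FMRs were not alike. Around the Arhgef15 FMR, 20 CpGs that lie 1 to 2 kb away on both sides, in introns, coding exons and untranslated exon sequence of the gene and 1 just outside it, were nearly unmethylated in wild-type cells (mean 4.38%), rose to 34.4% in TTKO cells at day 0 and fell to 10.1% by day 29. On the lower-coordinate side the 14 CpGs had means of 4.58%, 39.0% and 10.4%, and on the other side the 6 CpGs had 3.92%, 23.7% and 9.40%. The lowest and highest TTKO levels at day 0 were 1.40% and 68.2%. The fully methylated region itself was covered only by amplicons, and the flanks lost 70.6% of their day 0 level.

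Around the Atp2b2 FMR, 19 CpGs within 1 kb on the lower-coordinate side, which include untranslated exon sequence, had 59.1% in wild-type, 81.7% in TTKO cells at day 0 and 61.1% at day 29. Around the Acot7 FMR, 9 intronic CpGs had 57.5%, 80.7% and 58.0%. These flanks thus lost 25.2% and 28.1% of the day 0 level, against 45.4% over all CpGs of the table and 27.3% over the 329216 that had at least 80% methylation at day 0, a limit that the flanks themselves were not held to. The flanks of the Methylated_UMR lost 31.8%, more than these and less than the Arhgef15 flanks.

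Next to the Methylated_UMR, 24 CpGs within 1 kb on the side of Tuba3a, which cover its start and first exon, fell from 78.2% to 50.4%, a loss of 35.5%, and had 64.4% in wild-type cells. Beyond 1 kb on that side, 10 CpGs in the Tuba3a intron lost 15.0%, from 82.7% to 70.3%. On the side away from Tuba3a, 3 CpGs within 1 kb fell from 57.2% to 22.2%, a loss of 61.2%, and 2 CpGs beyond 1 kb lost 43.0%. The 35 CpGs within 1 kb above the metIsland, in AU022751 coding sequence, went from 85.3% to 75.0%, a loss of 12.04%, and the 5 beyond lost 14.4%. Single CpGs beside the metIsland still fell by up to 42.2 percentage points.

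**Figure D4:**
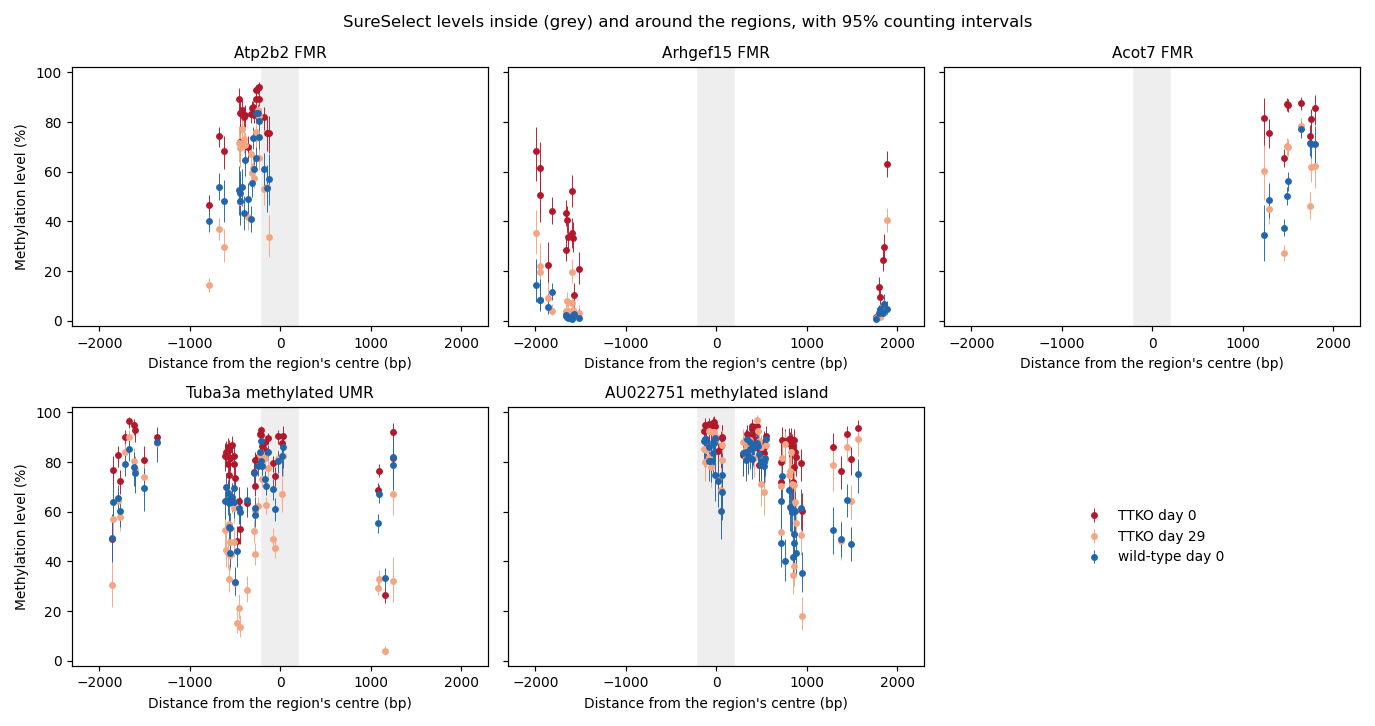
SureSelect methylation level in percent (y axis) by distance from the region centre in bp (x axis) for the 5 covered regions, with wild-type cells at day 0 and TTKO cells at day 0 and day 29 as separate series, 1 pooled value per CpG, bars for 95% counting intervals and the region shaded grey. The Arhgef15 flanks lie near 0 in wild-type cells (mean 4.38%), and the metIsland CpGs change least between day 0 and day 29 (91.8% to 84.5% inside the region).

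Between the lines at day 0, 105 of 153 CpGs were higher in TTKO cells (Fisher's exact test, adjusted p under 0.05), against 44.7% of the table, with 47 of 51 for FMRs, 33 of 47 for the Methylated_UMR and 25 of 55 for the metIsland. A single CpG was lower, at chr6:125237741, 962 bp above the Methylated_UMR, against 0.907% of the table, and this call was lost when over-dispersion between replicates was allowed for, and also when differences under 10 points were not counted. The median difference was 23.0 percentage points for FMRs, 11.4 for the Methylated_UMR, 11.8 for the metIsland and 4.80 for the table. With at least 100 reads in both columns it was 12.2 for the Methylated_UMR and 6.94 for the metIsland, so the order of these types depends on the coverage minimum.

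For the 19 CpGs read by both assays, SureSelect means lay below amplicon means, with a difference of -3.84 percentage points in TTKO cells at day 0 (88.6% against 92.5%), -4.18 in TTKO Cre cells at day 29 (76.0% against 80.1%) and -5.81 in wild-type cells (78.9% against 84.7%). The order of CpGs was alike, with Spearman's rank correlations of 0.744, 0.939 and 0.871 in the 3 conditions, as a description over CpGs that share amplicons.

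Turnover rates were fitted to the TTKO time courses with the study's dynamical model, in which the de novo rate decays after Cre and the remaining loss is the passive demethylation rate. Rates are described for CpGs whose fit was well bounded (95% credible range of both rates under 2 on the log2 scale). In the amplicons the median passive demethylation rate was 1.99% per day in FMRs (log2 per day -5.65, 22 of 22 CpGs, SD of the medians of single replicates 0.384), 1.47% in the Methylated_UMR (-6.09, 5 of 6, SD 0.408) and 0.569% in the metIsland (-7.46, 3 of 12, SD 0.444). Over the table it was 4.14% per day (-4.59, 237 of 405 CpGs). For the Methylated_UMR the limit on width left out 1 CpG, and over all 6 the median was 0.792% per day (-6.98), with -6.92 under a binomial likelihood. The 3 types were thus below the table, the metIsland most of all, though with 9 of its 12 CpGs without a bounded rate.

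Within the FMRs the Arhgef15 and Atp2b2 medians were 2.33% per day each, Acot7 2.06%, the second Traf3 FMR 1.24% and the first 0.729%, so the Traf3 FMRs were lowest here as they were in the loss at day 29. The de novo rates had amplicon medians of 12.8% per day in FMRs, 9.07% in the Methylated_UMR, 8.80% in the metIsland and 6.29% over the table. The Arhgef15 FMR had the highest de novo median of the regions, at 21.6% per day. The paper states that this rate cannot be inferred exactly near the methylation ceiling. Between replicates its SD was 0.84 to 1.74 on the log2 scale at the 3 metIsland CpGs. In SureSelect, with flanks, the medians were 6.69% in FMRs and 6.92% in the Methylated_UMR, below the 7.28% of that table. The metIsland had 7.89% (6 CpGs), so no order of types is read from de novo rates.

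In SureSelect the well-bounded medians were 2.38% per day for FMRs (log2 -5.39, 38 of 51 CpGs), 2.05% for the Methylated_UMR (-5.61, 36 of 47) and 3.55% for the table (-4.82, 44.8% of CpGs). Under a beta-binomial likelihood the log2 median was -4.16 for FMRs (16 CpGs) and -4.83 for the Methylated_UMR (15 CpGs), with which the table's value cannot be compared, since the table was not refitted that way. For the metIsland they rested on 6 of 55 CpGs, all outside the region, with 2.49% per day, and the 47 CpGs whose rates lay away from the border of the fitted grid, without the limit on width, had 0.384% (log2 -8.02). The limit on width leaves the faster CpGs there, so only the second value covers the region, where 13 of 15 CpGs had 0.360%. The well-bounded FMR median joins unlike regions. The Arhgef15 flanks had 8.89% per day (15 CpGs), whereas the Atp2b2 FMR with its flanks had 1.60% (16 CpGs). The Acot7 flanks had 1.21% (7 CpGs). The Atp2b2 and Acot7 values lie below that of the Methylated_UMR, so no order of these types is read from the pooled medians.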

How the data were processed

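Amplicon and SureSelect bisulfite sequencing were compared separately. The authors aligned reads to mm9 with Rbowtie in QuasR and deposited, per CpG and sample, the count of covering reads and the methylated fraction (AmpliconBiSeq, no level under 100 reads). For SureSelect they deposited read counts of at least 50 and methylation as a percent with 1 decimal, with replicates joined per time point. Read numbers times levels gave whole methylated reads at all amplicon values (within 0.0001 reads) and, within 0.05 percentage points, at all SureSelect values. The authors' own fitted rates, confidence classes and TET activities were not used. Groups and replicates came from the sample labels, and regions were matched by position to mm9, where all 405 and 2177608 positions read CG.

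A quasi-binomial logistic model, two-sided, was fitted to each amplicon CpG (0.5 added to each count), and its dispersion was moderated over the whole table with limma 3.58.1 in R 4.3.3 and not allowed under 1, with Benjamini-Hochberg adjustment over the table and a threshold of 0.05. For means over CpGs, exact permutation tests over samples were used, two-sided. Pooled SureSelect reads were compared with Fisher's exact test, which concerns those libraries and not replicates. The percentage lost is relative to the mean of the mock samples. Both multi-feature tests were checked on simulated data.

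Rates were fitted on a grid of 80 rates per axis up to 2 per day (k_E of 0.5 per day, a day 0 share of 8% for uncut alleles, over-dispersion 0.0055 for amplicons, binomial for SureSelect). A rate was identified where the probability at the grid's border was under 8%. Python 3.11.15 with numpy 2.4.6, pandas 2.3.3, scipy 1.17.1 and numba 0.67.0 was used. Regions with a CpG in both amplicon tables were named, and per type the CpGs with the lowest and the highest TTKO loss, the largest day 0 difference and the largest SureSelect loss. The regions and these lists were chosen with earlier results of these data known. Alternatives were a replicate block, each library left out, other coverage minima, tests, flanks and fit settings.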

Additional observations from a re-analysis of the deposited data

Results flagged for a closer look

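The CpG at chr6:113705660 in the Atp2b2 FMR had a Cre effect at day 29 that differed between the lines by a log2 odds ratio of 1.13 ± 0.27 (SE), with a quasi-binomial adjusted p of 0.0417, and it drew notice because this test of the difference itself passed the threshold. It was 1 of 33 CpGs, near the share of the whole table called in this direction (3.12%). It was less methylated after Cre than in mock in every replicate of both lines. The call rests on single libraries, as given above.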

How the results depend on the processing

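Of 219 alternative values for 25 results, 192 kept their direction and their side of the threshold, or stayed within 1.5 times the count or 1 SD. For means over CpGs, the exact permutation test cannot give a p under 0.1. Alternatives tested that way could not cross the threshold of 0.05, so only their direction could change. The 192 include such alternatives, so the total says nothing about how firm the p-values of those means are. The count of CpGs whose Cre effect differed between the lines, 1 of 33, was 0 with a replicate block, 0 at a minimum of 1000 reads, 0 with limma and 0 to 5 with 1 library left out. Of the table, 0% was called with the replicate block. With 1 library left out, 0% to 8.33% of the table was called with a smaller effect in TTKO cells and 0% to 4.69% in the other direction. In wild-type cells the loss of FMRs minus that of the Methylated_UMR, 3.32 percentage points, was -1.50 without wild-type Cre replicate 3 and -1.50 to 5.82 over all single libraries left out. In SureSelect, 72 of 107 CpGs within 1 kb and 14 of 26 inside the regions were called lower at day 29, the latter a smaller share than in the table (59.3%). Between the lines 68 of 107 and 14 of 26 were called different, against 44.7% of the table called higher in TTKO cells and 0.907% called lower.

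Same-numbered samples did not deviate together (correlations of -0.321 to 0.107), so samples were not paired by number in the main tests. These correlations cover Cre and mock at day 29 and the lines at day 0. With 3 replicates, and with no comparison across days, they cannot settle whether the numbers mark paired cultures. With the replicate block, 28 CpGs were called lower after Cre in TTKO cells (65.9% of the table), 26 in wild-type cells (48.5%) and 29 higher in TTKO at day 0 (53.3%). Leaving out 1 library gave 25 to 33 (57.0% to 67.2% of the table), 24 to 32 (45.7% to 49.7%) and 26 to 30 (50.9% to 55.1%).

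For the passive demethylation rate (median log2 per day), the amplicon Methylated_UMR went from -6.09 to -6.92 with a binomial likelihood, to -6.98 over identified CpGs and to -5.87 to -5.68 with 1 replicate left out. SureSelect FMRs went to -4.16 with a beta-binomial likelihood and -5.57 over identified CpGs, the Methylated_UMR to -5.38 at k_E 0.25 per day, -4.83 and -6.05, and the metIsland to -8.02 over identified CpGs, with no bounded CpG left under the beta-binomial likelihood. The causes were not tested. The SureSelect spread between replicates was not analysed here, since the columns used join them.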
